A study of Mus musculus with 22 samples.

Results

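The 9 genes described here encode transcription factors that specify spinal motor neurons or divide them into columns and pools. They are Isl1, Isl2, Mnx1, Lhx3, Lhx4, Foxp1, Etv1, Etv4 and Pou3f1. They were taken by gene name from the count table of every library, where they make up 9 of 55376 listed genes. The choice used no measured value, but it was made with earlier results of these data known.

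Newborn motor neurons leave the cell cycle in the ventral spinal cord and switch on the LIM homeodomain factor Isl1 together with the homeodomain factor Mnx1 (HB9). Lhx3 and Lhx4 act in early motor neurons and stay on in the median motor column, which innervates axial muscle, whereas Foxp1 marks the lateral motor column, which innervates the limbs. Signals from target muscle switch on the ETS factors Etv1 (ER81) and Etv4 (PEA3) in single motor pools, and the POU factor Pou3f1 (SCIP) marks some pools of the lateral column. Isl1 is not restricted to motor neurons. It is also known in sensory neurons of the dorsal root ganglion and in the dI3 class of dorsal interneurons.

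RNA was sequenced from cells sorted out of mouse embryos at E12.5, in mid-gestation. Motor neurons were sorted by the reporter ISL1-fGFP, and endothelial cells by Kdr-Cherry, named for a receptor gene of endothelial cells; all libraries share such a reporter sort. Each library is a pool of cells, so a level is a mean over every cell that passed the gate. One series compared wild-type embryos with Plxnd1 knockout embryos, with cord and meninges dissected together and embryos pooled by genotype before sorting. It holds 3 wild-type and 3 knockout motor neuron libraries, 3 knockout endothelial libraries and 2 usable wild-type endothelial libraries. The file labelled wild-type endothelial batch 2 was identical in all 55376 genes to that of knockout endothelial batch 1 and was not used, which leaves 21 of 22 libraries. The other series is wild type throughout, with 5 libraries of spinal and 5 of meningeal endothelial cells. Spinal batches 1 to 3 came from ventral cord and batches 4 and 5 from whole cord. Total counts ran from 20680902 to 27035395 per library in the knockout series and from 15685784 to 21493255 in the regional series. The 2 series were counted with different settings, so levels are compared only within a series. Levels are in CPM, the counts of a gene scaled to a common library size after TMM, a correction for differences in RNA composition between libraries. Errors on levels are SD over libraries, and errors on log2 differences are standard errors derived from the test statistic of the fit.

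Plexin D1, the targeted gene, checked the genotype labels. Plxnd1 stood at 12.1, 5.07 and 7.80 CPM in wild-type motor neuron batches 1 to 3 and at 1.77, 0.644 and 0.769 CPM in the knockout batches. In endothelial cells it stood at 213 and 178 CPM in the wild type and at 29.1, 15.5 and 18.6 CPM in the knockout. The groups did not overlap in either cell type.

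The annotation used for counting places the genes on 9 chromosomes. In mm10, Isl1 lies at chr13:116298281-116309689 on the minus strand with 2516 exonic bases, and Isl2 at chr9:55541148-55546180 on the plus strand with 1854. Mnx1 lies at chr5:29473034-29478470, minus strand, with 2250 exonic bases. Lhx3 lies at chr2:26200212-26208289, minus strand, with 2415 exonic bases, of which 188 are shared with the antisense gene Gm27196. Lhx4 lies at chr1:155698031-155742027, minus strand, with 5514 exonic bases. The single-exon gene Pou3f1, at chr4:124656807-124660655 on the plus strand, shares 330 of its 3849 bases with the antisense gene Gm2164. Reads of the knockout series were counted without strand, so sense and antisense reads cannot be told apart in these 2 overlaps. Foxp1 spans chr6:98925338-99520997, minus strand, with 7849 exonic bases, and lies 16.43 Mb from Plxnd1 on the same chromosome. It shares 300 exonic bases with Gm20696 and 135 with Gm49348, both genes of the same strand, which held 138 and 0 counts over all 22 files. Etv1 lies at chr12:38779380-38870484, plus strand, with 7205 exonic bases, and Etv4 at chr11:101769742-101785371, minus strand, with 2400.

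The RefSeq promoter table (build GRCm38.p6) held 7 of the 9 genes in 11 windows, and all but Etv4 and Pou3f1 were matched by symbol. Shown here are the 250 bases before the start of Isl1 (chr13:116309689-116309938, minus strand), Isl2 (chr9:55540899-55541148, plus strand) and Mnx1 (chr5:29478471-29478720, minus strand), because these genes serve as general motor neuron markers. Their levels varied together across the motor neuron libraries, as did those of all 9 genes. Capitals mark CCAAT on either strand.
Isl1: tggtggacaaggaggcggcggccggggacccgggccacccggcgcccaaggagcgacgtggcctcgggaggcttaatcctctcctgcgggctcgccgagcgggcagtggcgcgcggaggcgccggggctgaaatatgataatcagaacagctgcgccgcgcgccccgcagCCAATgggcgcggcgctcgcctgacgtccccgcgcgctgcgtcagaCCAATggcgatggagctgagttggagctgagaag
Isl2: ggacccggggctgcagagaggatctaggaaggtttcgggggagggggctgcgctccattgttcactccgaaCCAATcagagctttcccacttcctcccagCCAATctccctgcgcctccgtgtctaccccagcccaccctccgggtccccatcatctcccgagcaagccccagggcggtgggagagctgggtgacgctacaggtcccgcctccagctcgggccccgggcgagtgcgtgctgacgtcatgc
Mnx1: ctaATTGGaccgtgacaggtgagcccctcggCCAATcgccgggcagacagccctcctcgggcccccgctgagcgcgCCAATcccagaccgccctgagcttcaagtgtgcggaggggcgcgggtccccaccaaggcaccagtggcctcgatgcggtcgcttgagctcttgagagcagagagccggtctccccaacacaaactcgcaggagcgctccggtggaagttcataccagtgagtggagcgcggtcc
The windows are rich in G and C, at 71.2% for Isl1, 66.8% for Isl2 and 66.4% for Mnx1, against a median of 52.4% over 32851 windows of the same length. They hold 33, 16 and 21 CG dinucleotides, against a median of 6. CCAAT was searched after the windows had been read, and occurs 2 times in Isl1, 2 times in Isl2 and 3 times in Mnx1. It is in 4 of the 11 windows, the 3 shown and 1 at Foxp1, and in 33.8% of all windows. The windows of Lhx3, Lhx4 and Etv1 hold none. The homeodomain core TAATTA is in 1 of the 11 windows, at Foxp1, and in 4.84% of all windows. Neither the ETS core CCGGAAG nor the octamer ATGCAAAT is in any of the 11, and they are in 6.91% and 1.6% of all windows. All 4 motifs were searched on both strands.

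In wild-type motor neurons the general motor neuron factors had the highest levels per length, and the pool factor Etv1 the lowest. On the scale of CPM per kb of exon, Isl1 stood at 77.8 ± 28.8 (SD, n = 3), Mnx1 at 36.9 ± 19.9, Isl2 at 29.97 ± 17.3 and Lhx3 at 25.9 ± 12.6. Lhx4 followed at 18.2 ± 8.67, Pou3f1 at 17.6 ± 5.63, Foxp1 at 16.0 ± 5.85 and Etv4 at 10.5 ± 6.12, and Etv1 came last at 0.795 ± 0.141. Neighbours in this order overlapped in their ranges over libraries, with the exception of Etv4 and Etv1. Within a library the order was steadier: each gene exceeded the next in 3 of 3 wild-type libraries, except Lhx4 over Pou3f1, in 2 of 3. By group mean the knockout libraries gave the same order but for Pou3f1 and Lhx4, which changed places at 20.4 ± 7.18 and 19.4 ± 9.61 CPM per kb. Within knockout libraries Pou3f1 exceeded Lhx4 in 2 of 3, and Lhx4 exceeded Foxp1 in 1 of 3.

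**Figure D1:**
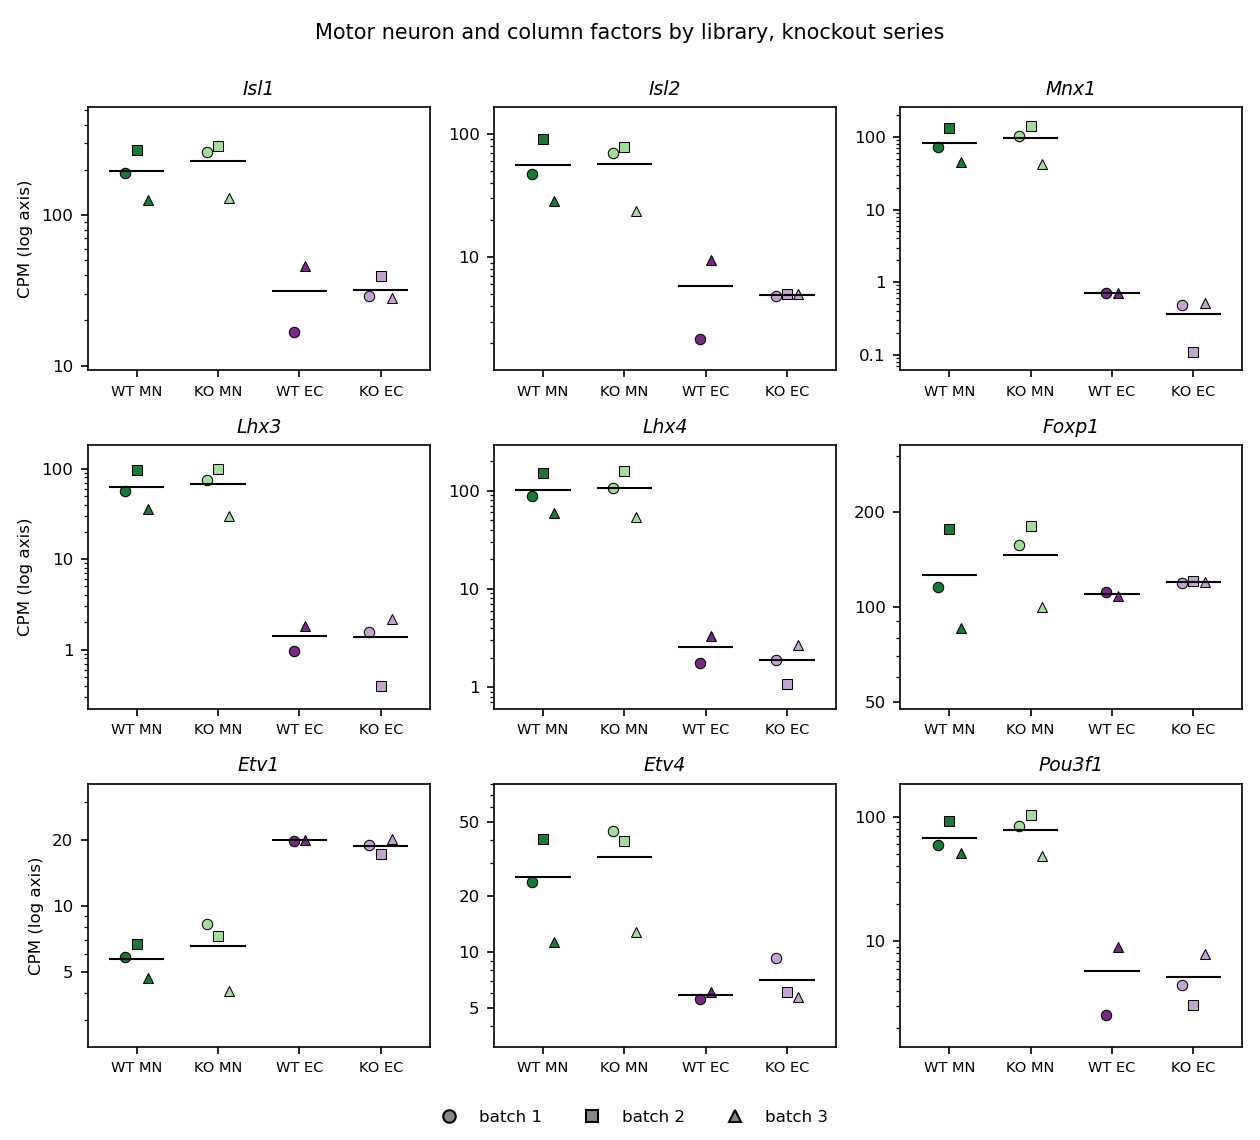
Level of each gene in the 11 libraries of the knockout series, in CPM on log axes whose range differs between panels; points are libraries, shapes are batches, and horizontal lines are group means for wild-type (WT) and Plxnd1 knockout (KO) motor neurons (MN) and endothelial cells (EC). Batch 3 is the lowest motor neuron batch in every panel, and Etv1 is the gene with higher levels in endothelial cells.

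Loss of Plxnd1 was not accompanied by a called change of any of the 9 genes in motor neurons. Isl1 stood at 190.8, 270.4 and 126 CPM in wild-type batches 1 to 3 and at 265, 290.1 and 129.9 CPM in the knockout batches. The groups overlapped, and the difference between batches was larger than the difference between genotypes. Mnx1 stood at 71.9, 132 and 45.0 CPM in the wild type and at 102, 143 and 42.6 CPM in the knockout. Lhx3, the partner of Isl1 in the motor neuron complex, stood at 56.4, 95.6 and 35.6 CPM in the wild type and at 74.3, 100.3 and 30.3 CPM in the knockout. Both repeated the pattern of Isl1, with batch 2 highest and batch 3 lowest in either genotype.

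Knockout minus wild-type differences were small on the log2 scale. They lay between 0.03 ± 0.50 for Isl2 and 0.35 ± 0.53 for Etv4, with 0.22 ± 0.34 for Isl1, 0.20 ± 0.48 for Mnx1, 0.12 ± 0.46 for Lhx3 and 0.08 ± 0.43 for Lhx4. Foxp1 differed by 0.20 ± 0.29, Etv1 by 0.18 ± 0.28 and Pou3f1 by 0.21 ± 0.30. None of the 9 genes passed an adjusted p of 0.05 in edgeR's quasi-likelihood test, against 0.012% of 16695 tested genes (2 genes). No member had an unadjusted p under 0.05, where 1.14% of tested genes did. DESeq2 called 0 of the 9, and among all tested genes it called 0 higher and 4 lower. The 95% intervals were wide. They allowed a fold of 0.673 to 2.004 for Isl1, 0.535 to 2.46 for Mnx1 and 0.546 to 2.96 for Etv4. The same test did not call Plxnd1 itself (log2 difference -2.97 ± 0.46, adjusted p = 0.80), which DESeq2 did (adjusted p = 1.06e-08), as did edgeR with batch as a term (adjusted p = 0.000135).

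With batch as a term the intervals narrowed and the 9 genes remained uncalled, against 0.0359% of tested genes called. Isl1 then differed by 0.20 ± 0.08 on the log2 scale, an interval of 1.02-fold to 1.30-fold (adjusted p = 0.80). Foxp1 differed by 0.22 ± 0.08 (adjusted p = 0.69) and Etv4 by 0.35 ± 0.16 (adjusted p = 0.86). These 3 of 9 had an unadjusted p under 0.05, where 5.8% of tested genes did. For Lhx4 the interval ran from 0.930-fold to 1.17-fold, and for Isl2 from 0.819-fold to 1.26-fold. Batch 1 gave the highest knockout-to-wild-type ratio for every member: 1.39 for Isl1, 1.42 for Mnx1, 1.48 for Isl2 and 1.86 for Etv4. In batch 2 the ratio was 1.07 for Isl1, 1.08 for Mnx1, 0.850 for Isl2 and 0.968 for Etv4. Isl1 and Foxp1 were higher in the knockout in 3 of 3 batches, as were 13.8% of all tested genes, and Isl2 was higher in 1 of 3. The knockout library of batch 1 also held RNA of the liver gene Alb at 462 CPM, against 0.269 to 0.489 CPM in the other 5 motor neuron libraries. Without that library, and with batch as a term, the differences fell to 0.07 ± 0.09 for Isl1, 0.12 ± 0.10 for Foxp1 and 0.04 ± 0.13 for Etv4, while Isl2 stood at -0.26 ± 0.11 (adjusted p = 0.59).

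**Figure D2:**
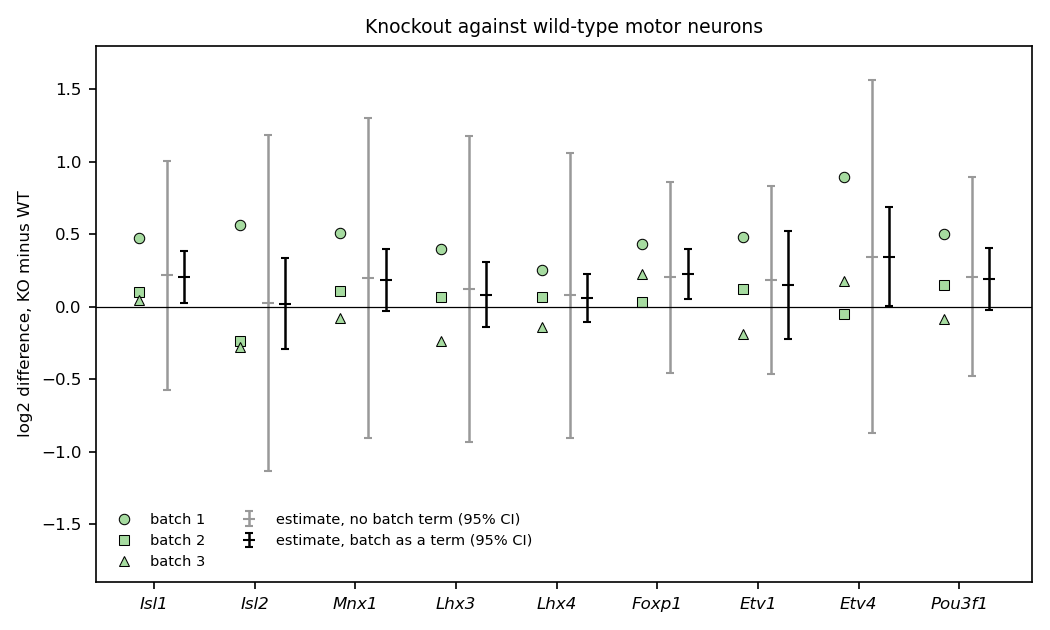
Log2 difference between knockout and wild-type motor neurons for each gene; points are the 3 batches, and bars are fitted estimates with 95% intervals without (grey) and with (black) batch as a term. Batch 1 is the highest point for all 9 genes, and Isl2 lies below 0 in batches 2 and 3.

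Levels differed more between batches than between genotypes. Both batch 3 motor neuron libraries were below the other 4 for 9 of 9 genes, as they were for 14.3% of the 16695 tested genes. In the wild type, batch 2 exceeded batch 3 by 3.58 times for Etv4, 3.18 times for Isl2, 2.94 times for Mnx1 and 2.15 times for Isl1, and by 1.43 times for Etv1. In the knockout the same ratio was 3.06 for Etv4, 3.29 for Isl2, 3.35 for Mnx1 and 2.23 for Isl1. Over the 6 libraries, the range was narrowest for Etv1 (2.02 times) and Foxp1 (2.09 times), and widest for Etv4 (3.925 times).

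Genes of the cholinergic phenotype had the same batch pattern. The summed level of 6 such genes (Chat, Slc18a3, Slc5a7, Slc10a4, Ache and Prph) was 611, 912 and 397 CPM in wild-type batches 1 to 3 and 909, 1218 and 390.4 CPM in the knockout. That of the 9 factors was 661, 1058 and 448 CPM in the wild type against 911, 1099 and 446 CPM in the knockout. Chat, the enzyme that makes acetylcholine, stood at 32.7, 52.1 and 20.3 CPM in the wild type and at 53.5, 72.5 and 22.1 CPM in the knockout. None of the 6 passed the test between genotypes, and 6 of 6 log2 differences were above 0, with a median of 0.36 against 0.00 over all genes tested. With batch as a term, 6 of 6 had an unadjusted p under 0.05, where 5.8% of tested genes did, and 0 of 6 an adjusted one. In that fit 6 of 12 interneuron genes (1 higher and 5 lower in the knockout) and 5 of 7 Schwann and neural crest genes (5 lower) also had an unadjusted p under 0.05, and 0 an adjusted one. The part of these cell types in the cholinergic values was not tested.

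Markers of inhibitory interneurons were abundant in the libraries labelled motor neurons and had another batch pattern. Pax2, a factor of several inhibitory interneuron classes, stood at 426, 361 and 567 CPM in wild-type batches 1 to 3 and at 379.8, 303 and 487 CPM in the knockout. The summed level of 12 interneuron genes was 1916, 1802 and 2353 CPM in the wild type against 1752, 1443 and 2215 CPM in the knockout, highest in batch 3 in both genotypes. In the same libraries Gad2, a GABA-synthesising enzyme, stood at 241 to 402 CPM, and the factor Lhx5 at 272 to 425 CPM. Lhx1 stood at 769 to 1061 CPM. It is known in lateral motor neurons of the limb-innervating column and also in several interneuron classes. In a bulk sample, fewer motor neurons and less RNA of these genes per motor neuron cannot be told apart. The part of interneuron RNA in the batch pattern was not tested.

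**Figure D3:**
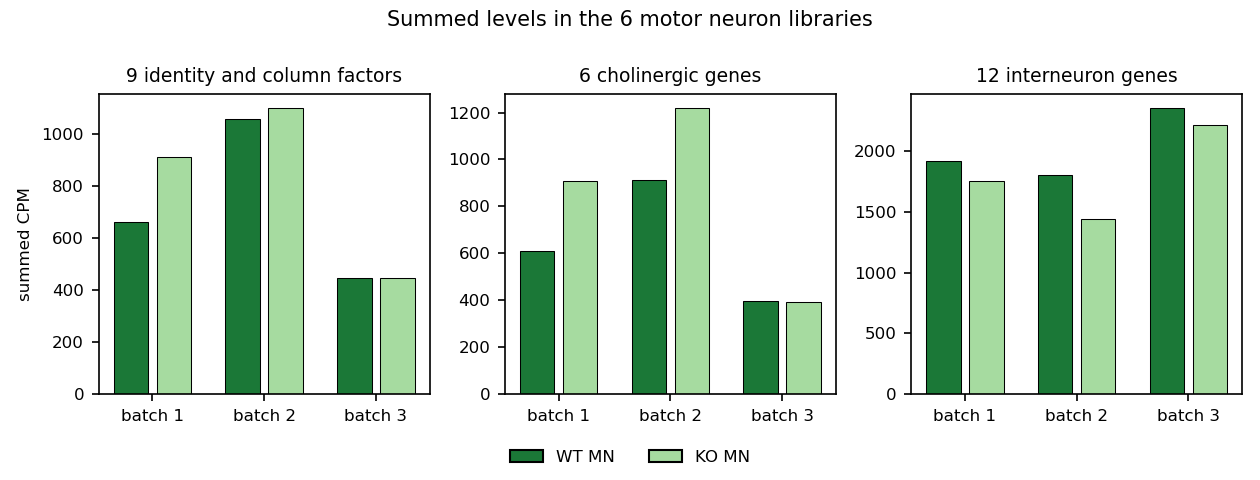
Summed CPM of the 9 identity and column factors, of 6 cholinergic genes and of 12 interneuron genes in each motor neuron library, by batch, for the wild type (WT) and the knockout (KO). The first 2 panels are lowest in batch 3 (446 to 448 CPM for the 9 factors), and the third is highest there.

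Ratios to Isl1 within a library were compared as well. The log2 ratio of Mnx1 to Isl1 was -1.31 ± 0.24 (SD, n = 3) in the wild type and -1.33 ± 0.29 in the knockout. That of Lhx3 was -1.69 ± 0.17 and -1.82 ± 0.28, and that of Foxp1 was -0.63 ± 0.08 and -0.61 ± 0.20. Across the 8 genes the knockout-minus-wild-type difference of this ratio ran from -0.19 for Isl2 to 0.14 for Etv4. The ratio was lower in the knockout in 3 of 3 batches for Lhx3 (differences of -0.28 to -0.03) and Lhx4 (-0.22 to -0.04), as it was for 35.2% of 16654 genes. Two-sided exact permutation tests within batches gave p from 0.25 to 1, where 3 pairs cannot give less than 0.25. Without the pairing p ran from 0.4 to 1, and 3 libraries against 3 cannot give less than 0.1.

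Other genes of the pathway showed no called change with Plxnd1 loss in motor neurons either. None passed in the lists of 9 LIM cofactors, 7 later motor neuron selectors, 16 other column and pool genes, 12 columnar Hox genes, 10 progenitor genes or 8 FGF-response genes, with or without batch as a term. Median log2 differences were -0.02 for the LIM cofactors, 0.06 for the selectors, 0.12 for the column and pool genes and -0.01 for the Hox genes, against 0.00 over all genes. The median over the 9 factors was 0.20. With batch as a term, an unadjusted p under 0.05 was found in 4 of 7 selectors, 5 of 16 column and pool genes, 3 of 12 Hox genes, 1 of 8 FGF-response genes, 0 of 9 LIM cofactors and 0 of 10 progenitor genes, against 5.8% of all tested genes. Of the selectors 3 were higher and 1 lower in the knockout, of the column and pool genes 5 were higher, and of the Hox genes 1 was higher and 2 lower. Without batch as a term, 0 genes of these 6 lists had one, against 1.14% of tested genes.

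Across the 6 motor neuron libraries the factors moved together, with Pearson correlations of log2 CPM from 0.852 (Lhx4 with Etv1) to 0.996 over the 36 pairs. The 6 points come from 3 batches of 2 libraries and share library depth and cell make-up, so these values describe the libraries only. Among 11266 genes with a mean of at least 5 CPM, the pattern most like that of Mnx1 was that of Slc10a4 (r = 0.999), a transporter of cholinergic neurons, followed by Rasgef1c and Paqr7. The genes most like Isl2 were Fah, Kcnab1 and the motor neuron progenitor factor Nkx6-1 (r = 0.997 for the last). Those most like Isl1 were Fads3, Wnt11 and Gm44950, and those most like Foxp1 were Lrrtm2, Sfrp4 and Cdh9. Asns, Trerf1 and Mb21d2 were most like Lhx3, and Jmjd4 and Prkch were among the 3 most like Lhx4. For Etv4 they were Map3k12, Vgf and Fut11, for Pou3f1 Tmem132e, Plpp2 and Casz1, and for Etv1 Slc25a37, Arhgef4 and Adamts10. All of these r were at least 0.993.

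Wild-type motor neurons and endothelial cells differed in 8 of the 9 genes, against 64.8% of all tested genes called. Higher in motor neurons were 7 of the 9, against 31% of 19266 tested genes called in that direction, and lower was Etv1, against 33.8%. Isl1 names the sorting reporter, so its difference (6.41-fold) is set by the sort and is no finding. Mnx1 showed the widest contrast: 71.9, 132 and 45.0 CPM in motor neurons and 0.711 and 0.697 CPM in endothelial libraries, a log2 difference of 6.90 ± 0.77 (edgeR adjusted p = 2.18e-05). Its endothelial values rest on 20 and 19 reads. Lhx3 differed by 5.51 ± 0.78 (adjusted p = 0.000116) and Lhx4 by 5.33 ± 0.65 (adjusted p = 3.83e-05). All 5 endothelial libraries of the series, knockouts included, held at most 2.20 CPM of Lhx3 and 3.30 CPM of Lhx4.

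The pool and column factors were less uniform. Pou3f1 was 11.9-fold higher in motor neurons (log2 difference 3.58 ± 0.60, adjusted p = 0.000381) and Isl2 was 9.78-fold higher (3.29 ± 0.73, adjusted p = 0.00236). Etv4 stood at 23.9, 40.6 and 11.4 CPM in motor neurons and at 5.58 and 6.13 CPM in endothelial cells, a log2 difference of 2.14 ± 0.60 (adjusted p = 0.00956). The difference was about as large without wild-type endothelial batch 1 (2.08, adjusted p = 0.065) or batch 3 (2.19, adjusted p = 0.0509), though the call was lost. Either omission leaves 1 wild-type endothelial library, which is then assumed to vary like the other groups. Foxp1 did not differ beyond its error: 116, 176 and 85.8 CPM in motor neurons against 112 and 108 CPM in endothelial cells, a log2 difference of 0.22 ± 0.29 (95% interval -0.41 to 0.85, adjusted p = 0.52). Etv1 ran the other way, at 5.86, 6.68 and 4.65 CPM in motor neurons and 19.9 and 20.1 CPM in endothelial cells. Its log2 difference was -1.78 ± 0.26 (adjusted p = 0.000141).

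Genes known to respond to FGF signalling were also lower in motor neurons than in endothelial cells, in 8 of 8 cases, with a median log2 difference of -2.87 against -0.02 over all tested genes. The feedback inhibitors Spry4, Dusp6 and Spry1 and the ETS factor Etv5 led them. In the order Spry4, Dusp6, Etv5 and Spry1 they differed by -3.79 ± 0.44, -3.50 ± 0.32, -2.98 ± 0.35 and -2.97 ± 0.30. Etv5 belongs to the same ETS subfamily as Etv1 and Etv4. Other lists ran toward motor neurons: 6 of 7 later selectors, 6 of 6 cholinergic genes, 7 of 12 columnar Hox genes and 10 of 16 column and pool genes were higher, against 31% of all tested genes, and 0, 0, 0 and 5 were lower, against 33.8%. The 5 of 16 are near that share. Slc18a3, the vesicular acetylcholine transporter, led the cholinergic genes at 6.41 ± 0.79, followed by Chat at 6.08 ± 0.78. Among selectors, Onecut1 differed by 3.40 ± 0.95 and Onecut3 by 3.03 ± 0.47, and among Hox genes Hoxc8 by 2.20 ± 0.19 and Hoxc9 by 2.07 ± 0.21. Of the column and pool genes, Lhx1 differed by 5.20 ± 0.52, Ret, a receptor of GDNF signalling, by 4.57 ± 0.63, Cdh7 by 4.02 ± 0.49 and Nos1, an enzyme found in preganglionic motor neurons, by 3.97 ± 0.50. Of the progenitor genes, 4 of 10 were higher in motor neurons and 4 lower, near the shares of all tested genes. Olig2, which marks motor neuron progenitors before they leave the cycle, was among the lower ones, at 1.55 ± 0.872 CPM against 7.68 ± 5.69 CPM. Interneuron genes were higher in 10 of 12 cases, and 11 of 11 endothelial genes were lower. Among the LIM cofactors, 5 of 9 were higher and 1 lower. The higher ones included Lmo1 at 2.95 ± 0.41 and Ssbp3, a partner of Ldb1, at 1.11 ± 0.14. Lmo2, a cofactor of blood and endothelial cells, was the lower one at -1.07 ± 0.27.

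Isl1 was read in the endothelial libraries without a matching share of Mnx1. Those libraries held 470 and 1246 reads of Isl1 in the wild type and 601 to 1075 in the knockout, or 16.7 to 45.7 CPM. The ratio of Isl1 to Mnx1 reads was 2.03 to 3.05 over the 6 motor neuron libraries and 23.5 to 358 over the 5 endothelial libraries. Isl2 stood at 2.17 to 9.47 CPM there, and its ratio to Isl1 was 0.128 to 0.207, against 0.181 to 0.337 in motor neurons. The same libraries held markers of sensory neurons. The summed level of 9 sensory and dI3 genes was 66.0 to 173 CPM. Of those 9, 1 was called higher in wild-type motor neurons than in wild-type endothelial cells and 2 lower. Over all tested genes the shares were 31% and 33.8%. Their median log2 difference, motor neurons minus endothelial cells, was 0.23. Mesenchymal genes summed to 14790 to 17274 CPM in the endothelial libraries. The part of these cell types in the Isl1 reads was not tested.

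In endothelial cells Plxnd1 loss called 0 of the 9 genes, against 0% of 18209 tested genes without batch as a term and 0.989% with it. The edgeR fit without batch as a term did not call Plxnd1 itself (log2 difference -3.20 ± 0.26, adjusted p = 0.16). DESeq2 called Plxnd1 (adjusted p = 8.5e-25), as did edgeR with batch as a term (adjusted p = 5.52e-15). No member had an unadjusted p under 0.05 in either edgeR fit, where 2.37% of tested genes did without batch as a term and 8.8% with it. DESeq2 called 0 of the 8 to which it gave an adjusted p, and among all tested genes it called 28 higher and 6 lower. Foxp1 stood at 112 and 108 CPM in wild-type batches 1 and 3 and at 119, 120.5 and 119.5 CPM in the knockout. The knockout group was above the wild type, as it was for 5.45% of tested genes, but the difference was 0.14 ± 0.08 on the log2 scale (adjusted p = 0.999). Mnx1 was the other gene whose groups did not overlap, at 0.711 and 0.697 CPM against 0.481, 0.109 and 0.516 CPM, on 3 to 20 reads a library, and 8.47% of tested genes lay apart in that direction. Its log2 difference was -0.94 ± 0.60 (adjusted p = 0.999). Etv1 stood at 17.2 to 20.2 CPM over all 5 libraries. The other differences lay between -0.42 ± 0.45 for Lhx4 and 0.28 ± 0.26 for Etv4. The knockout effect did not differ in a called way between the cell types for any member. In edgeR 0 of 9 passed with or without batch as a term, against 0% of 19266 tested genes. DESeq2 called 0 of the 9 and 1 of all tested genes. No member had an unadjusted p under 0.05 in those tests of the difference. The estimates were imprecise, at 0.16 ± 0.61 for Isl1 and 1.17 ± 1.102 for Mnx1.

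Between spinal and meningeal endothelial libraries, 5 of the 9 genes were called, a share near the 47.8% of all tested genes, and all 5 were higher in the cord. Mnx1, Lhx3, Lhx4, Pou3f1 and Etv4 were the higher ones, against 24.8% of 16213 tested genes called in that direction. None was called lower, against 23%. Mnx1 stood at 1.54, 2.97, 4.78, 3.25 and 2.37 CPM in spinal batches 1 to 5 and at 0, 0, 0.229, 0.0483 and 0.162 CPM in the meningeal ones. The groups did not overlap, and in 19.2% of tested genes the spinal group lay wholly above the meningeal one. The spinal libraries held 282 Mnx1 reads in all and the meningeal ones 8, a ratio of 35.0 (exact binomial 95% interval 17.5 to 81.9, for counting error only) after scaling for depth. A count of 0 in meningeal batch 1 or 2 allows up to 3 reads, and the fitted log2 difference was 4.98 ± 0.60 (edgeR adjusted p = 2.36e-05).

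Lhx3 showed the same split, at 2.95, 2.53, 4.15, 4.03 and 3.15 CPM in spinal and 0, 0.0619, 0.286, 0.145 and 0.108 CPM in meningeal libraries. The meningeal level rests on 11 reads, against 311, a ratio of 28.1 (15.5 to 56.8). Lhx4 gave a ratio of 22.3 (14.8 to 35.1) on 539 and 24 reads, and Pou3f1 23.5 (16.4 to 34.9) on 734 and 31 reads. The fitted log2 differences were 4.72 ± 0.46 for Lhx3, 4.40 ± 0.39 for Lhx4 and 4.49 ± 0.35 for Pou3f1, with adjusted p from 7.96e-07 to 4.75e-06. Each was higher in the spinal library in 5 of 5 batches, as were 26.8% of tested genes.

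**Figure D4:**
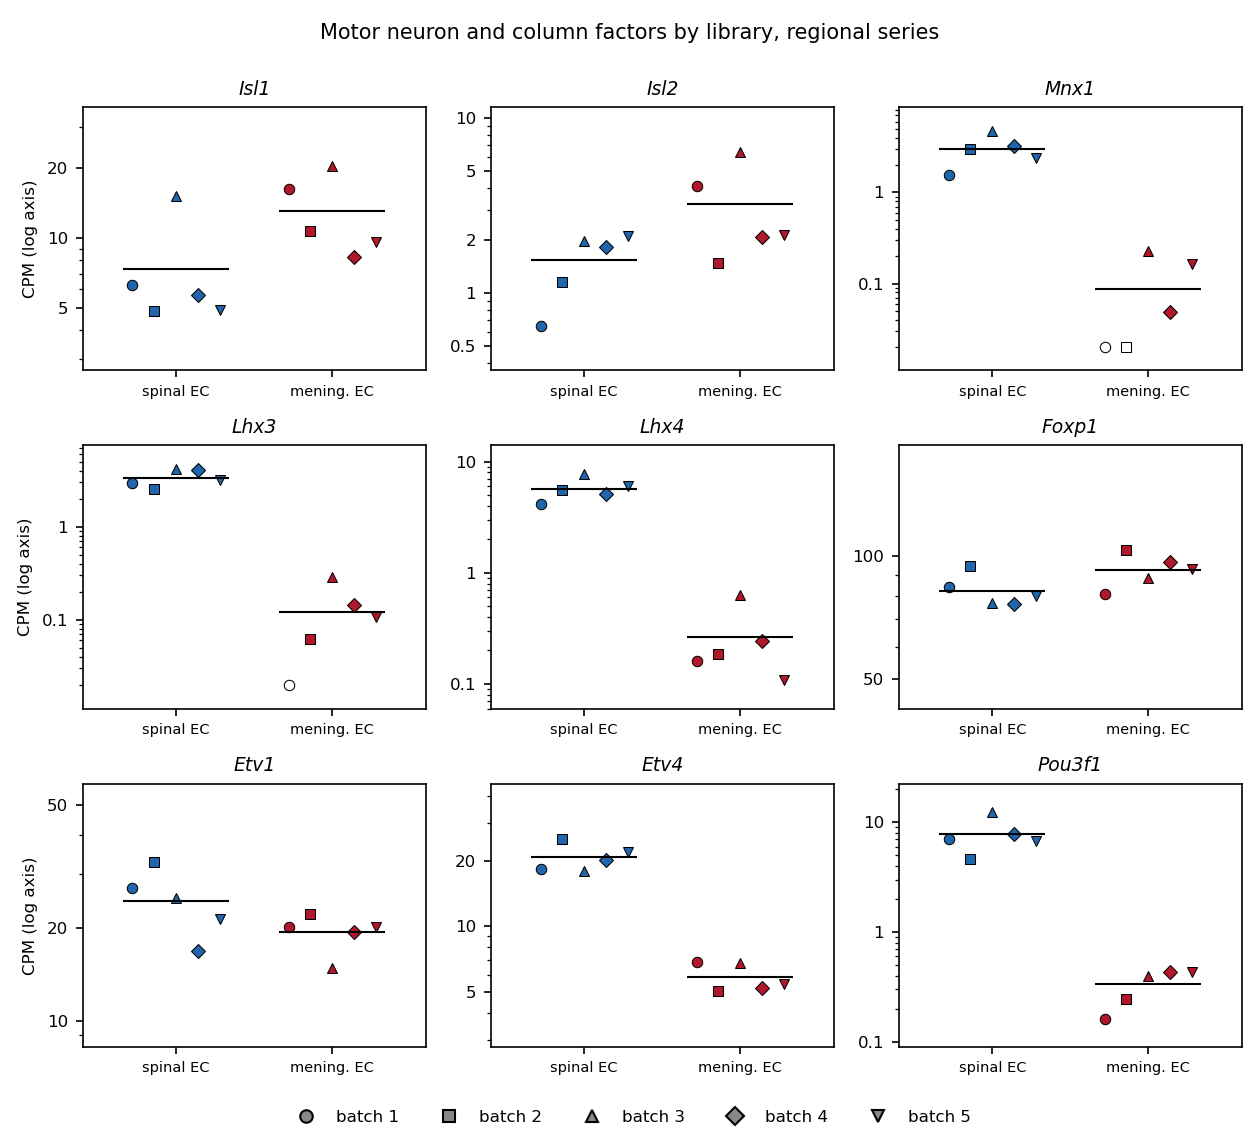
Level of each gene in the 10 wild-type endothelial libraries of the regional series, in CPM on log axes whose range differs between panels; points are libraries, shapes are batches, and lines are group means. Open symbols are libraries with 0 reads, drawn at an arbitrary low level. Mnx1, Lhx3, Lhx4, Etv4 and Pou3f1 separate the spinal from the meningeal (mening.) libraries, and Foxp1 and Etv1 do not.

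Etv4 differed in size from those 4 genes. It stood at 18.4, 25.3, 18.0, 20.4 and 22.1 CPM in spinal and 6.86, 5.01, 6.80, 5.22 and 5.44 CPM in meningeal libraries, 3.53-fold higher (log2 difference 1.82 ± 0.15, adjusted p = 1.30e-06). Each meningeal library held 81 to 127 reads of it, more than of any of the other 4 genes of this group.

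The islet genes leaned toward the meninges. Isl1 stood at 6.26, 4.83, 15.1, 5.66 and 4.90 CPM in spinal and 16.3, 10.8, 20.3, 8.26 and 9.65 CPM in meningeal libraries. The spinal value was lower in 5 of 5 batches, as for 23.9% of tested genes, while the groups overlapped through spinal batch 3. The log2 difference was -0.83 ± 0.35 (adjusted p = 0.071) without batch as a term. With it, Isl1 was called lower in spinal libraries (-0.90 ± 0.18, adjusted p = 0.0033), as were 21.3% of tested genes, and 6 of 9 members were called in all, against 45.2%. That fit takes same-numbered libraries as pairs. In batches 1, 2 and 5, however, deviations from the group mean correlated more highly with a library of another number. DESeq2 called Isl1 as well (adjusted p = 0.041). Without batch as a term, edgeR did so without spinal batch 3 (-1.30, adjusted p = 0.0023) or without meningeal batch 4 (adjusted p = 0.047). Isl2 was lower by 1.07 ± 0.43 on the log2 scale (adjusted p = 0.059), and 0.085 with batch as a term. DESeq2 called it (adjusted p = 0.035), as did edgeR without meningeal batch 2 (adjusted p = 0.029) or batch 4 (adjusted p = 0.049).

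Foxp1 and Etv1 were not called. Foxp1 levels were 76.2 to 94.6 CPM among spinal and 80.5 to 103 CPM among meningeal libraries, a log2 difference of -0.18 ± 0.10 (95% interval -0.39 to 0.03, adjusted p = 0.15). Without meningeal batch 1 it was -0.27 (adjusted p = 0.036). Etv1 stood at 16.8 to 32.7 CPM and 14.8 to 22.2 CPM, a log2 difference of 0.33 ± 0.17 (adjusted p = 0.13), and without spinal batch 4 of 0.42 (adjusted p = 0.041). Foxp1 was the highest of the 9 genes per kb of exon in both groups, at 10.5 ± 0.973 CPM per kb (SD, n = 5) in spinal and 11.8 ± 1.097 in meningeal libraries. Etv4 came next in spinal libraries at 8.68 ± 1.25, with ranges that overlapped those of Foxp1, and Isl1 came next in meningeal libraries at 5.19 ± 2.02, with ranges that did not. Mnx1 was last in the meninges at 0.0390 ± 0.0457, and Isl2 last in the cord at 0.833 ± 0.336.

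**Figure D5:**
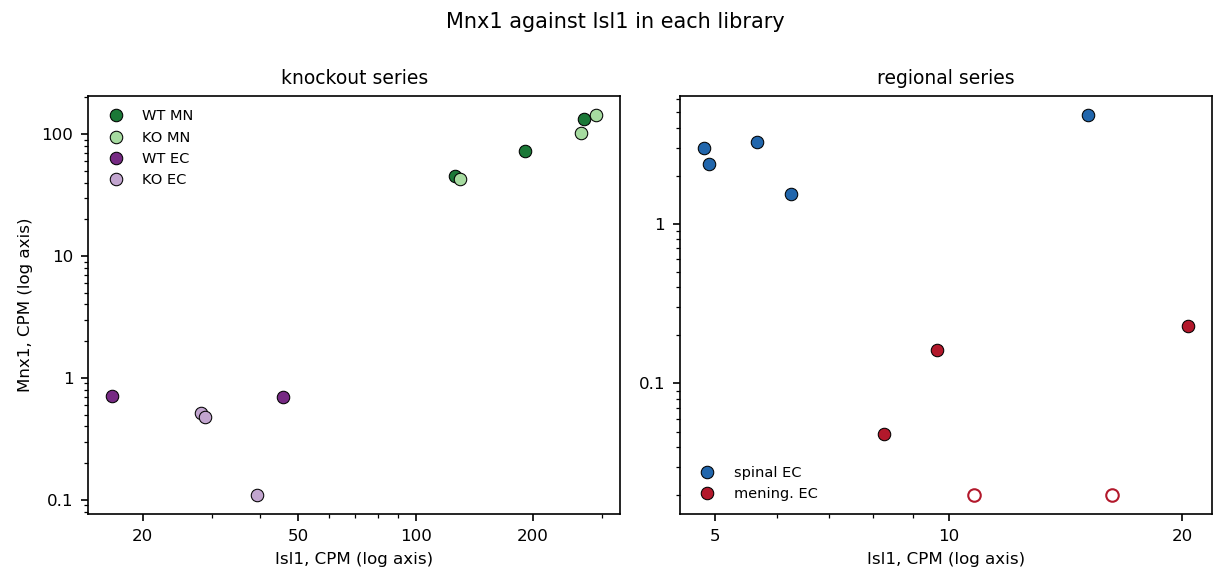
Mnx1 against Isl1 in each library, in CPM on log axes, for the knockout series (left) and the regional series (right); open symbols are libraries with 0 reads of Mnx1, drawn at an arbitrary low level. All 5 spinal libraries have more Mnx1 than any meningeal one, and 4 of 5 have less Isl1 than any meningeal one.

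The ratio of Isl1 to Mnx1 reads was 1.63 to 4.08 over the 5 spinal libraries and 59.7 to 171 over the 3 meningeal libraries that held any Mnx1 read. Markers of other cells moved with this split. Of all tested genes, 24.8% were called higher in spinal libraries and 23% lower. Cholinergic genes were higher in the spinal libraries in 5 of 6 cases, with Slc18a3 at 4.91 ± 2.09 CPM (SD, n = 5) against 0.0758 ± 0.0945 CPM. Interneuron genes were higher in 12 of 12 cases and summed to 90.8 to 250 CPM among spinal against 2.86 to 8.97 CPM among meningeal libraries. Pax2 differed by 7.77 ± 0.59 on the log2 scale and Gad2 by 7.34 ± 0.53. V2 interneuron genes were higher in 6 of 6 tested cases, with a median log2 difference of 1.34 against 5.67 for the 12 interneuron genes. Gata3 was higher by 1.48 ± 0.26 on the log2 scale. Which cells carried the V2 genes was not tested. Between wild-type motor neurons and endothelial cells, 1 of 6 tested V2 genes was called higher in motor neurons and 2 lower. Of all genes tested there, 31% were higher and 33.8% lower. Progenitor genes were higher in 7 of 9 tested cases and lower in 1 (2 with batch as a term). Among the higher was Olig2, at 15.3 ± 10.1 CPM against 0.0476 ± 0.0653 CPM. Olig1 was read at 22.4 CPM in spinal libraries and not at all in the 5 meningeal ones, at least 682-fold higher against a floor of 3 reads over the group.

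Of 8 tested sensory and dI3 genes, 2 were higher in the cord and 3 lower, against 24.8% and 23% of all tested genes. Their summed level was 15 to 38.7 CPM among spinal against 37.3 to 94.7 CPM among meningeal libraries, overlapping between the groups, and no gene of the list was at 0 in every library of a group. In spinal batch 3, where Isl1 was highest, Chat (2.89 CPM), Mnx1 (4.78 CPM), Lhx4 (7.76 CPM) and Pax2 (55.4 CPM) were also the highest of the 5 spinal libraries. Lhx3 and Pou3f1 were highest there too. Other members went another way: Isl2 was highest in batch 5, Foxp1 and Etv1 were highest in batch 2, and Etv4 was lowest in batch 3 (18.0 CPM). Whether neuronal RNA makes part of these differences was not tested.

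Of the remaining lists, later selectors were higher in spinal libraries in 6 of 7 cases, column and pool genes in 10 of 16 with 3 lower, columnar Hox genes in 5 of 12 with 1 lower, and LIM cofactors in 3 of 9 with 3 lower. Over all tested genes the shares were 24.8% higher and 23% lower, and the LIM cofactors lay near both. Onecut3 differed by 3.99 ± 0.52 and Onecut2 by 2.85 ± 0.37 on the log2 scale. Lhx1 averaged 31.2 ± 12.3 CPM over spinal against 0.171 ± 0.130 CPM over meningeal libraries, whereas Aldh1a2, a retinoic acid-synthesising enzyme of both limb-level motor neurons and meninges, was at 23.7 ± 20.2 and 781 ± 40.6 CPM. Lmo3 was higher in the cord by 5.54 ± 0.37 and Lmo4 lower by 1.33 ± 0.12. FGF-response genes were higher in the cord in 6 of 8 cases, with Spry4 at 1.49 ± 0.21 and Spry1 at 0.91 ± 0.25. Paralogues of the 9 factors were higher in 7 of 11 tested cases and lower in 3. Among the higher were Pou3f3 at 7.19 ± 0.51 and Pou3f2 at 6.53 ± 0.44, both factors of the same POU class as Pou3f1. The median log2 difference was 1.26 for the selectors, 3.22 for cholinergic genes and 0.18 for Hox genes, against 0.01 over all tested genes and 1.82 over the 9 factors.

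Dissection of ventral or whole cord left no called difference in the spinal-to-meningeal contrast of any member. In edgeR 0 of 9 passed, against 0.547% of 17901 tested genes without batch as a term and 0.0223% with it. DESeq2 called 0 of 9, while among all 17901 tested genes it called 362 higher and 959 lower. No member had an unadjusted p under 0.05 without batch as a term, and 2 of 9 did with it (Isl2 and Etv1), where 18.2% of tested genes did. Dissection and batch change together in the spinal group, so the contrast uses the meningeal libraries of the same batches to take up the batch part. The estimates were -0.11 ± 0.61 for Isl1, -1.56 ± 0.80 for Isl2, 0.51 ± 1.48 for Mnx1 and 0.59 ± 0.28 for Etv1 on the log2 scale. Mnx1 and Lhx3 were read in all 5 spinal libraries of either dissection, on 26 to 106 and 46 to 92 reads.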

How the data were processed

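Bulk RNA-seq of sorted cells from E12.5 mouse embryos gave 22 files of raw counts per gene. Per the file headers, the authors made the deposited counts with featureCounts 1.6.4 from the GENCODE M22 basic annotation of mm10, without a multi-mapping option. The knockout series was counted without strand on single reads, and the regional series as reverse-stranded read pairs, per the file headers. The gene length that the authors' deposited files list served for levels per kb and for nothing else. Trimmomatic 0.39 and STAR 2.5.3a are named in the submitters' processing notes.

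Groups came from the labels. Genes were tested with edgeR 4.0.16 in R 4.3.3 (quasi-likelihood F-test, TMM scaling, filterByExpr with a minimum count of 10), with Benjamini-Hochberg adjustment over all genes tested and a threshold of 0.05. The contrast of cell types and the difference of knockout effects came from 1 fit of the 4 groups of the knockout series. Ratios to Isl1 were compared by two-sided exact permutation tests, adjusted over 8 genes. The script was tested on simulated data. DESeq2 1.42.0, RLE scaling, other filters, batch as a term, 1 joint fit and leaving out each library were the alternatives.

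The labels call the replicate numbers batches, so same-numbered libraries were taken as pairs. Deviations of same-numbered libraries from their group means correlated at 0.358 to 0.412 in motor neurons and at 0.441 and 0.517 in endothelial cells. In the regional series they correlated at -0.273 to 0.304. There, in batches 1, 2 and 5, the highest correlation with another number was larger, at 0.211, 0.332 and 0.0705 against -0.273, -0.0343 and 0.0377. Nothing in the labels says how embryos were divided between batches, so the spread behind each p-value is that of the libraries and may be technical.

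The 9 genes, the gene lists and the tests were chosen with earlier results of these data known. Named besides them are the called members of each list, at most the 4 with the largest differences, defining markers of other cell types, the 3 genes most like each factor by Pearson correlation, Plxnd1 and Alb; some genes that this rule names are not reported here. Intervals on ratios of reads are 95% binomial and, like the limit of 3 reads behind a count of 0, cover counting error only. RefSeq promoter windows were searched as exact letters.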

Additional observations from a re-analysis of the deposited data

Results flagged for a closer look

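Of 18 groups of 5 libraries examined for a single distant library, 2 held one. Chance gives about 1 in 20 for normal values in independent groups, whereas these groups share the same libraries. Isl1 stood at 15.1 CPM in spinal batch 3, and the next highest spinal library held 6.26 CPM. Lhx4 stood at 0.628 CPM in meningeal batch 3 on 11 reads, and the next highest meningeal library held 0.242 CPM.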

How the results depend on the processing

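Counts of members called stayed within 1.5 times of the reported count in 88 recalculations and left that range in 1, which was the spinal-to-meningeal comparison under a filter at a mean of 5 CPM, where 1 of the 4 members still tested was called; the filter itself removed the others. The reported count was 0 for both knockout comparisons, for the difference of knockout effects and for the dissection contrast. There, staying within the range says only that no member was called. With batch as a term (the replicate block), no count of members called moved by over 1.5 times. The call that changed in that edgeR fit was Isl1 between regions (-0.90, adjusted p = 0.0033). For single genes, 504 values kept direction and side of the threshold, 9 gained a call, 2 lost one and 45 changed sign. None of the sign changes concerned a called difference, and their cause was not tested. In endothelial cells the knockout difference became 0.039 for Isl2, 0.48 for Lhx3 and 0.27 for Pou3f1 with batch as a term, and Lhx3 became 0.020 in DESeq2 and 0.0082 under RLE scaling. With batch as a term and without knockout motor neuron batch 1, the motor neuron differences became -0.26 for Isl2, -0.080 for Lhx3, -0.041 for Lhx4 and -0.033 for Etv1. Leaving out each library in turn, motor neuron differences ran from -0.025 to 0.53 for Isl1, -0.29 to 0.60 for Isl2, -0.20 to 0.72 for Mnx1, -0.26 to 0.57 for Lhx3, -0.33 to 0.53 for Lhx4, -0.015 to 0.53 for Foxp1, -0.019 to 0.43 for Etv1, -0.010 to 0.87 for Etv4 and -0.027 to 0.51 for Pou3f1. Endothelial differences ran from -0.47 to 0.94 for Isl1, -0.90 to 1.18 for Isl2, -0.51 to 0.51 for Lhx3, -0.78 to 0.071 for Lhx4 and -0.78 to 1.003 for Pou3f1. The Foxp1 difference between cell types ran from -0.10 to 0.44. Differences of log2 ratios to Isl1 ran from -0.18 to 0.11 for Mnx1, -0.27 to 0.011 for Lhx3, -0.094 to 0.098 for Foxp1, -0.21 to 0.076 for Etv1, -0.066 to 0.34 for Etv4 and -0.098 to 0.088 for Pou3f1. Wild-type endothelial cells had 2 libraries, and Mnx1, Lhx3 and Lhx4 rest on few reads in endothelial libraries, which limits every value there.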

Other observations

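Glial and mural genes also separated the regional libraries, beside the neuronal genes described above. In spinal libraries Fabp7, a radial glial fatty-acid-binding protein, was higher by 2.33 ± 0.23 on the log2 scale, while Cdh19, a cadherin of Schwann cell precursors, was lower by 4.70 ± 0.60. Of the Schwann and neural crest list, 1 of 7 genes was higher in the cord and 5 were lower, against 24.8% and 23% of all tested genes. Pericyte genes were higher in 6 of 7 cases, with Abcc9 at 3.22 ± 0.28, and Acta2 was lower by 4.80 ± 0.24. Endothelial genes were higher in 8 of 11 cases, with Flt1 at 2.40 ± 0.24. All 10 mesenchymal and meningeal genes were lower, and they summed to 1313 to 2635 CPM in spinal and 14207 to 21142 CPM in meningeal libraries.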
